A study of Bos taurus with 24 samples.

Results

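Dermal fibroblasts, the collagen-producing cells of the skin, were cultured from 4 Holstein heifers, a dairy breed, and 4 Angus heifers, a beef breed, of nearly equal age. Each culture was challenged with lipopolysaccharide (LPS), the outer membrane component of Gram-negative bacteria that is sensed through TLR4, at 100 ng/ml and was sampled at 0, 2 and 8 h. The 6 groups, named Angus or Holstein with the hour, held 4 samples each, and the 0 h samples served as untreated controls. Each of the 24 samples was 1 poly(A)-selected RNA library made from 2 pooled wells, so the replicate was the animal, and the cultures had been frozen and revived before the challenge. The count tables divided the bovine genome (UMD v3.1) into rows that carried a gene symbol and rows that did not. Described here are the rows without a symbol that lie between 2 genes pointing away from each other, the left gene on the minus strand and the right gene on the plus strand, so that each interval is flanked on both sides by gene starts. Of 5358 such autosomal intervals, 1020 held 1 CPM (counts per 1000000 counts of the library) or more in at least 12 of the 24 samples and were kept, out of 59846 rows in all and 32296 rows without a symbol. Each interval is named by its left and right neighbour, as in ERCC1/FOSB.

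Genes that start back to back are common in mammalian genomes. Their shared upstream region can act as a bidirectional promoter, and RNA from it can come from a first exon that the annotation lacks, from an alternative start of either gene, from a separate non-coding transcript, or from short antisense transcripts that RNA polymerase releases upstream of an active promoter. Most of the last kind lack a poly(A) tail and are degraded by the nuclear exosome. The library kit did not keep strand, so the counts in an interval cannot be assigned to the left or to the right direction.

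The level rule fixed the lower end of the levels. Just inside it were OR51S1/LOC527918, RAB14/GSN and MIR2398/FGL1, whose 12th-highest samples held 1.0002, 1.0023 and 1.0023 CPM. Just outside it were LOC100335549/MARCH1, LOC100848762/SORBS3 and HIVEP1/C23H6orf105 at 0.9998, 0.9963 and 0.9922 CPM. Because 12 samples were enough, an interval present in the cultures of only 1 breed, or mainly after LPS, could qualify, and the counts of called intervals below are therefore descriptions of a list chosen in part by these levels.

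The retained intervals were long and thinly covered. Their median length was 77531 bases (range 175 to 2084592), and their median mean level was 2.43 CPM (quartiles 1.52 and 5.29). Per length this was 0.0417 CPM per kb, against 0.37 in 2080 intervals between 2 gene ends (convergent neighbours) and 0.141 in 3253 intervals between neighbours on the same strand, chosen by the same level rule. The neighbouring genes themselves had a median of 0.329 CPM per kb. Per kb, 459 of the 1020 intervals (45%) lay below both of their neighbours and 143 (14%) above both, while 18.8% of the convergent and 32.3% of the same-strand intervals lay below both. The median interval had 4.41% of the CPM per kb of its denser neighbour, against 40.3% and 15.4% in the other 2 classes. Those classes were also shorter, with median lengths of 17882 and 35809 bases, and the part of length in these contrasts was not tested. Both neighbours averaged 1 CPM or more in 449 cases, 1 neighbour did in 417, and neither did in 154.

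Length and density went opposite ways. Of 799 divergent intervals shorter than 1 kb only 16 (2%) met the level rule, with a median of 3.26 CPM per kb, whereas 452 of 865 (52.3%) longer than 100 kb met it, with 0.00705 CPM per kb. Between 1 and 10 kb 103 of 1112 (9.26%) qualified, and between 10 and 100 kb 449 of 2582 (17.4%). The rule was set on CPM without regard to length, so it favoured long intervals.

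Counts were also gathered at few positions. The tables give the depth at the deepest base of each row, and this depth divided by the row's count was 15.5% in the median interval (quartiles 8.46% and 29.4%), against 9.7% in convergent and 11.2% in same-strand intervals and 7.14% in the neighbouring genes that could be measured. In 127 intervals it was over 50%. The 5 shortest intervals were LOC100847374/ACTR3 (175 bases, 263%), LCAT/LOC100847259 (204 bases, 61.3%), RBBP4/ZBTB8OS (358 bases, 180%), LOC100848365/PCBP1 (364 bases, 188%) and TLN1/CREB3 (430 bases, 126%). A share above 100% means that more reads covered 1 base of the row than were counted to the row, which occurred in 31 intervals. How the counting software divided reads that cross the edge of a row is not given in the sources used here.

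The counts were unevenly spread over the intervals. AUTS2/RN18S1, which ends at the 18S ribosomal RNA row, averaged 12234 CPM, and its sample values ran from 4621 to 55596 CPM, with Angus 3 at 2 h highest. The next were MIR2440/SYNGR1 (485 CPM), MIR7-2/RMI1 (415 CPM), LOC100336097/RASGRP3 (399 CPM) and MIR1225/RAB26 (271 CPM). All intervals together took 1.377% to 5.409% of a sample's counts, and 0.769% to 1.029% without AUTS2/RN18S1. Of 650 intervals whose neighbours could be placed side by side in the RefSeq gene table (assembly ARS-UCD2.0), 242 have at least 1 gene annotated between them there, 38 with a protein-coding gene and 204 with non-coding genes only, and 408 have none. MIR2440/SYNGR1 is among the 38, with the protein-coding LOC132345358 and small nucleolar RNA genes between its neighbours there. MIR7-2/RMI1 and MIR1225/RAB26 have none, and the neighbours of AUTS2/RN18S1 and LOC100336097/RASGRP3 could not be placed. The median level was 2.8 CPM with a non-coding gene between and 2.24 CPM with no gene between. Intervals called in at least 1 comparison below made up 6.37% of the former (13) and 7.84% of the latter (32).

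Library totals lay between 51014538 and 104406293 counts, so 1 CPM stood for 51 to 104.4 counts. All 11 fibroblast markers, COL1A1 and DCN among them, had a median of 1 CPM or more, and no keratinocyte marker did (0 of 5), but the 3 Holstein 1 libraries held 8.38 to 10.2 CPM of KRT5, 6.88 to 9.69 of KRT17 and 1.47 to 2.77 of KRT14, against at most 0.643, 0.274 and 0.245 CPM in the other 21. Among endothelial, leukocyte and melanocyte markers 1 each did, VWF, CD68 and PMEL, the other 8 being lower. In 4 samples (Angus 4, Holstein 2 and Holstein 4 at 0 h, and Angus 3 at 2 h) COL1A1 had 66.2 to 67.1 bases covered per count, against 111.8 to 119 in the other 20. Reads of these samples may have been counted in another way, and results without them are given below for some intervals and some counts of calls. Over the 282 intervals with enough coverage to measure, the largest and smallest bases per count among the samples differed by a median of 1.06-fold, and by over 1.5-fold in 9. Of the 25 intervals called after LPS 8 could be measured, and 0 of these were among the 9.

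LPS for 2 h raised a small set of intervals. Of 992 intervals tested, 18 rose and 2 fell by 2-fold or more, at a false discovery rate (FDR) under 0.05 and an average above 1 CPM. The share, 2.02%, was close to that of all rows tested, 2.82 percent, and below that of the neighbouring genes (46 of 1314, 3.5%), with 3.17% of convergent and 3.41% of same-strand intervals called. The median change over the intervals was -0.02 on the log2 scale. Values below are TMM-scaled CPM, changes are log2 with their standard error (SE), and FDRs are Benjamini-Hochberg values over all rows from edgeR's likelihood-ratio test. In bulk cultures, fewer cells of a kind and less RNA per cell cannot be told apart.

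The largest rise was in ERCC1/FOSB (chr18:53466228-53501994, 35767 bases), between the DNA excision repair gene ERCC1 and FOSB, a subunit of the AP-1 transcription factor made within minutes of a stimulus. The 4 Angus samples held 0.516, 0.504, 0.659 and 0.607 CPM at 0 h, 4.99, 6.95, 5.95 and 3.79 at 2 h and 0.574, 0.737, 0.544 and 0.478 at 8 h. The 4 Holstein samples held 1.18, 1.02, 1.24 and 1.78 CPM at 0 h, 19.1, 12.7, 12.7 and 18.2 at 2 h and 1.01, 0.932, 0.816 and 0.95 at 8 h. Every 2 h sample lay above every 0 h and 8 h sample, and at each hour every Holstein sample lay above every Angus sample. The rise at 2 h was 11.2-fold (log2 3.49, SE 0.362, FDR 1.61e-16). FOSB itself went from a median of 0.548 CPM (0.424 to 1.19) to 53.9 (19 to 111) and back to 0.592 (0.211 to 0.931), a log2 change of 6.44 at 2 h (SE 0.370, FDR 6.94e-41), while ERCC1 changed by 0.17. The interval was 1.53 higher in Holstein at 2 h (SE 0.235, FDR 3.33e-08) and FOSB 1.72 higher (FDR 6.47e-10), but no breed difference in the interval's response was called (interaction 0.36, SE 0.336, FDR 1), and the interval was already 1.18 higher at 0 h (FDR 0.000143), at an average under 1 CPM.

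**Figure D1:**
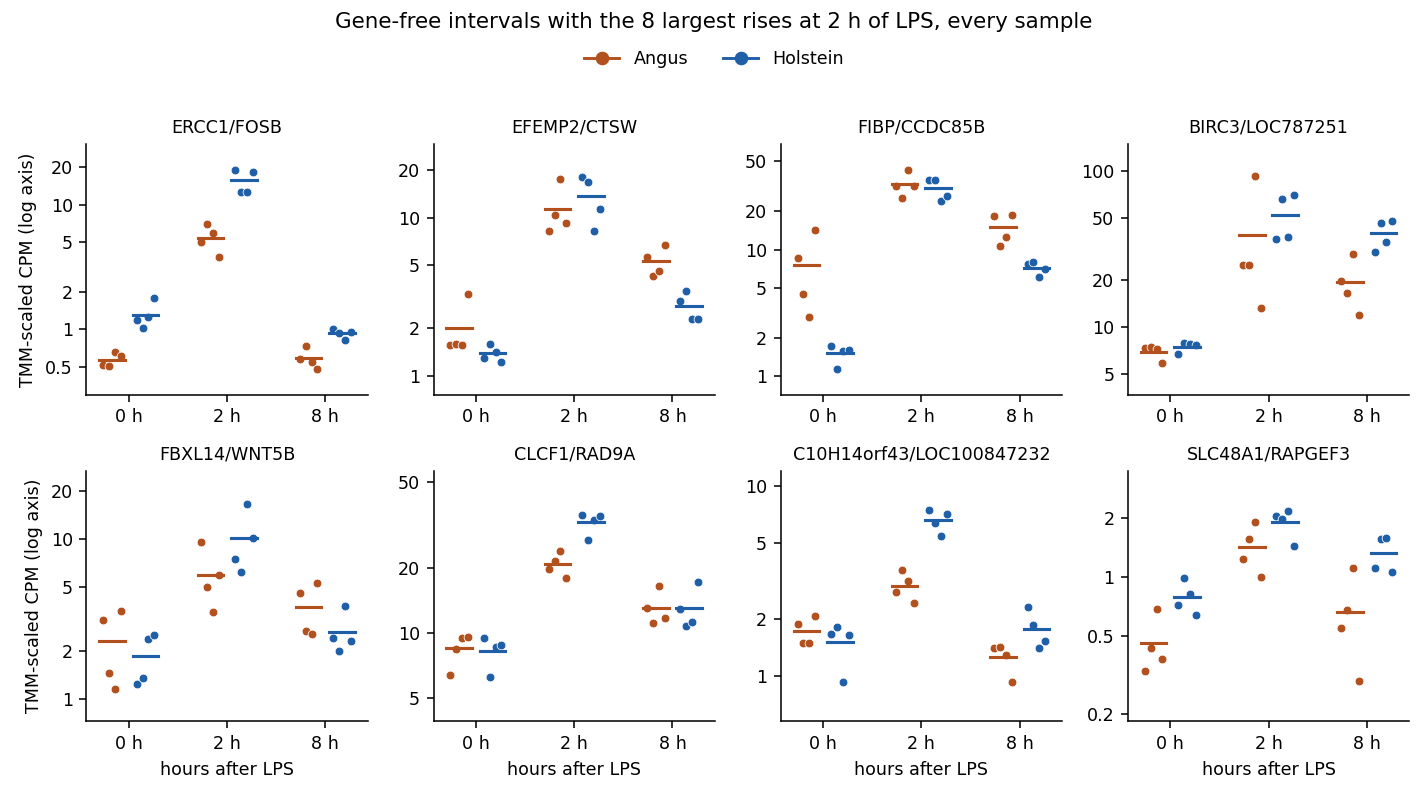
TMM-scaled CPM (log axis) in each of the 24 samples for the 8 intervals with the largest rises 2 h after LPS, by hour and breed (Angus orange-brown, Holstein blue); points are samples and bars are group means. ERCC1/FOSB reached 3.79 to 19.1 CPM at 2 h and was back at 0.478 to 1.01 CPM at 8 h, while BIRC3/LOC787251 was still at 12 to 47.7 CPM at 8 h.

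Next came 2 intervals on chromosome 29 with only CTSW, FIBP and a 195-base row between them. EFEMP2/CTSW (chr29:44657897-44661697, 3801 bases) separates EFEMP2, a matrix protein of elastic fibres, from CTSW, a cysteine protease. Angus samples went from 1.56, 1.59, 1.55 and 3.3 CPM at 0 h to 8.32, 10.4, 17.5 and 9.26 at 2 h and 5.64, 4.29, 4.59 and 6.75 at 8 h. Holstein samples went from 1.3, 1.6, 1.42 and 1.21 CPM to 18.3, 16.9, 8.22 and 11.3 and then 2.96, 3.44, 2.29 and 2.3. No 2 h sample overlapped a 0 h sample, and the interval rose by 2.88 at 2 h (SE 0.238, FDR 2.53e-27) and 1.24 at 8 h (SE 0.256, FDR 6.3e-05). CTSW rose by 4.24 at 2 h (SE 0.434, FDR 5.48e-16), from a median of 0.369 to 10.8 CPM, and EFEMP2 changed by 0.09. CTSW rose by more in Holstein (interaction 2.60, SE 0.619, FDR 0.0111), which was not called for the interval (0.81, SE 0.448, FDR 1). At 8 h every Holstein sample of the interval lay below every Angus sample (-0.95, SE 0.218, FDR 0.000657, under the 2-fold limit), and CTSW was lower in Holstein (-1.68, SE 0.261, FDR 7.61e-08).

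FIBP/CCDC85B (chr29:44669338-44671367, 2030 bases) lies between FIBP, an intracellular partner of a fibroblast growth factor, and CCDC85B, a small coiled-coil protein. In Angus it went from 8.62, 4.44, 2.93 and 14.2 CPM at 0 h to 31.6, 25.8, 42.4 and 31.7 at 2 h and 18.4, 10.7, 12.7 and 18.8 at 8 h. In Holstein it went from 1.72, 1.14, 1.58 and 1.61 CPM to 35.7, 35.7, 24.2 and 26.4 and then 7.75, 7.99, 6.03 and 6.98. The breeds did not overlap at 0 h or at 8 h (-1.07 in Holstein at 8 h, FDR 4.2e-05) and overlapped at 2 h. Over both breeds the rise at 2 h was 2.80 (SE 0.439, FDR 6.43e-08), beside 2.18 for CCDC85B (SE 0.322, FDR 3.45e-09) and -0.11 for FIBP, and at 8 h it was 1.30 with an FDR of 0.0525. CCDC85B is followed, after an interval of 136 bases that rose by 2.51 (SE 0.449, FDR 2.2e-06), by FOSL1, another AP-1 subunit on the minus strand (chr29:44672788-44679319), which rose by 2.12 (SE 0.378, FDR 1.48e-06). FIBP, within this stretch, did not pass the test, and neither did C29H11orf68 beyond FOSL1 (-0.21, FDR 0.0999). These rows were looked up after the values of the 2 intervals were seen.

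BIRC3/LOC787251 (chr15:6654249-6671862, 17614 bases) lies upstream of BIRC3, an inhibitor of apoptosis and classical target of NF-kB, the transcription factor that TLR4 activates. Angus samples held 7.31, 7.43, 7.18 and 5.88 CPM at 0 h, 25.2, 25.2, 93.4 and 13.2 at 2 h and 19.8, 16.6, 29.6 and 12 at 8 h. Holstein samples held 6.71, 7.85, 7.75 and 7.64 CPM at 0 h, 36.9, 66.6, 37.6 and 70.3 at 2 h and 30.5, 46.9, 35.3 and 47.7 at 8 h. All treated samples exceeded all 0 h samples, and the interval rose by 2.67 at 2 h (SE 0.302, FDR 7.95e-15) and 2.04 at 8 h (SE 0.236, FDR 4.08e-14). BIRC3 rose by 2.87 (FDR 8.06e-16) and 2.06 (FDR 6.07e-13), from a median of 11.1 CPM to 71.9 and 48.3. At 8 h the interval was 1.04 higher in Holstein (SE 0.275, FDR 0.00336), every Holstein sample above every Angus sample, and BIRC3 was 1.13 higher, with no interaction called for the interval (0.93, FDR 0.588).

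The other rises at 2 h ran from 1.06 to 1.95. FBXL14/WNT5B (chr5:108613566-108637827), between a ubiquitin ligase subunit and a Wnt ligand, went from a median of 1.91 CPM (1.16 to 3.53) to 6.84 (3.49 to 16.7) and 2.6 at 8 h (1.99 to 5.32), with overlap of 0 and 2 h only at 3.49 to 3.53 CPM. It rose by 1.95 (SE 0.316, FDR 7.15e-08), while FBXL14 (0.39, FDR 0.0626) and WNT5B (0.82, FDR 0.0564) did not pass. CLCF1/RAD9A (chr29:45912699-45932453), beside the IL6-family cytokine CLCF1 and the DNA damage checkpoint gene RAD9A, went from 8.76 CPM (6.27 to 9.65) to 25.5 (17.9 to 35.1) and 12.3 (10.8 to 17.2), so that all treated samples lay above all 0 h samples. The 2 h rise of 1.66 (SE 0.162, FDR 3.08e-21) was near that of CLCF1 (1.73, FDR 6.33e-27), and RAD9A was at -0.07.

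In the next intervals the hours were mostly separate. SAMD11/ZBTB17 (chr16:52794713-52870415) went from 3.47 CPM (2.46 to 5.36) to 9.69 (6.45 to 16.4) and back to 4.05 (2.64 to 4.98), a rise of 1.38 (SE 0.211, FDR 4.09e-09). SAMD11 rose by 2.54 (FDR 1.53e-14). SLC48A1/RAPGEF3 (chr5:32676307-32697064), between a haem transporter and a cAMP-activated exchange factor, went from 0.665 CPM (0.332 to 0.995) to 1.74 (0.998 to 2.17) and 1.08 (0.295 to 1.58), a rise of 1.42 (SE 0.234, FDR 6.66e-08). C10H14orf43/LOC100847232, described with the breeds below, rose by 1.56, and LOC100849022/MSI2, beside an RNA-binding protein gene, rose by 1.23 (SE 0.248, FDR 1.41e-05), from 0.869 CPM (0.516 to 1.24) to 2.25 (1.02 to 3.16), where the hours overlapped between 1.02 and 1.24 CPM. Neither SLC48A1 and RAPGEF3 nor MSI2 was called.

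In AMPD2/GNAT2 (chr3:33944924-33952104), beside AMP deaminase, the hours overlapped, at 3.92 CPM (2.59 to 8.74) and then 11.5 (3.2 to 20.5), but the interval rose within each of the 8 animals (1.25, SE 0.334, FDR 0.0019), and so did AMPD2 by 1.14 (FDR 9.38e-15). The other neighbour, GNAT2, rose by 0.86 (SE 0.261, FDR 0.00695), under the 2-fold limit. LOC100848534/MIR122 went from 1.61 CPM (1.06 to 2.3) to 3.75 (3.15 to 4.8), a rise of 1.23 (SE 0.166, FDR 9.45e-12), although neither neighbour reached the level to be tested. The smaller rises were in RPL38/SDK2 (1.18), SGMS2/LOC100848545 (1.15), XRCC3/ZFYVE21 (1.11), LOC614114/LOC100295131 (1.10), ADD1/SH3BP2 (1.09) and OVOL2/CSRP2BP (1.06). Each of the 12 largest rises was present in all 4 animals of both breeds.

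Both falls at 2 h were weaker. NR3C1/LOC100335172, a 598488-base interval beside the glucocorticoid receptor gene, held 7.42, 0.813, 4.04 and 1.39 CPM in Angus and 17.5, 20.2, 1.42 and 0.881 in Holstein at 0 h, and 1.06, 1.14, 1.27 and 1.09 and 6.13, 1.13, 1.07 and 0.98 at 2 h. The groups overlapped, since only some animals were high at 0 h, and the fall of -1.95 (SE 0.648, FDR 0.0201) was no longer called without Angus 1, without Angus 3, without Holstein 2, without the 4 samples with fewer bases per count or by the quasi-likelihood test. NR3C1 itself was at -0.10. RPL27A/TRIM66, between a ribosomal protein gene and a chromatin-binding gene, went from 2.27 CPM (0.501 to 2.48) to 0.944 (0.247 to 1.45) and back to 2.19 (0.732 to 2.78). It was lower at 2 h in all 8 animals (-1.06, SE 0.332, FDR 0.0103), and was not called without Angus 1 (log2 -0.99). RPL27A was at 0.07. TRIM66 was under the level limit for testing at 2 h, but the authors list this gene as lower at that hour. The log2 ratio of interval over TRIM66 counts gave no detectable shift (0.31, SE 0.357, limma adjusted p 0.655). NR1D1/MSL1, upstream of the circadian repressor NR1D1, went from 1.21 CPM (1.06 to 1.31) to 0.335 (0.3 to 0.515) with no overlap (-1.66, SE 0.152, FDR 1.72e-26) and NR1D1 fell with it (-1.55, FDR 1.39e-19), but the interval averaged under 1 CPM and is not among the 20.

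Of the 20 intervals changed at 2 h, 10 shared their call with a single neighbour. These 10 had a neighbouring gene called in the same direction, the left gene in 6 (BIRC3, CLCF1, C10H14orf43, SAMD11, AMPD2 and SGMS2) and the right gene in 4 (FOSB, CTSW, CCDC85B and SH3BP2), and none of the 20 had both or a neighbour called in the opposite direction. In 9 a neighbour was tested and none was called, and in 1 no neighbour was tested. The 9 include intervals with only 1 neighbour tested, such as RPL27A/TRIM66, where TRIM66 was not. Read from the genes, 43 intervals had a called neighbour and 10 of these were called (23.3%), against 10 of 949 without one (1.05%). No pair of neighbours was called together.

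**Figure D2:**
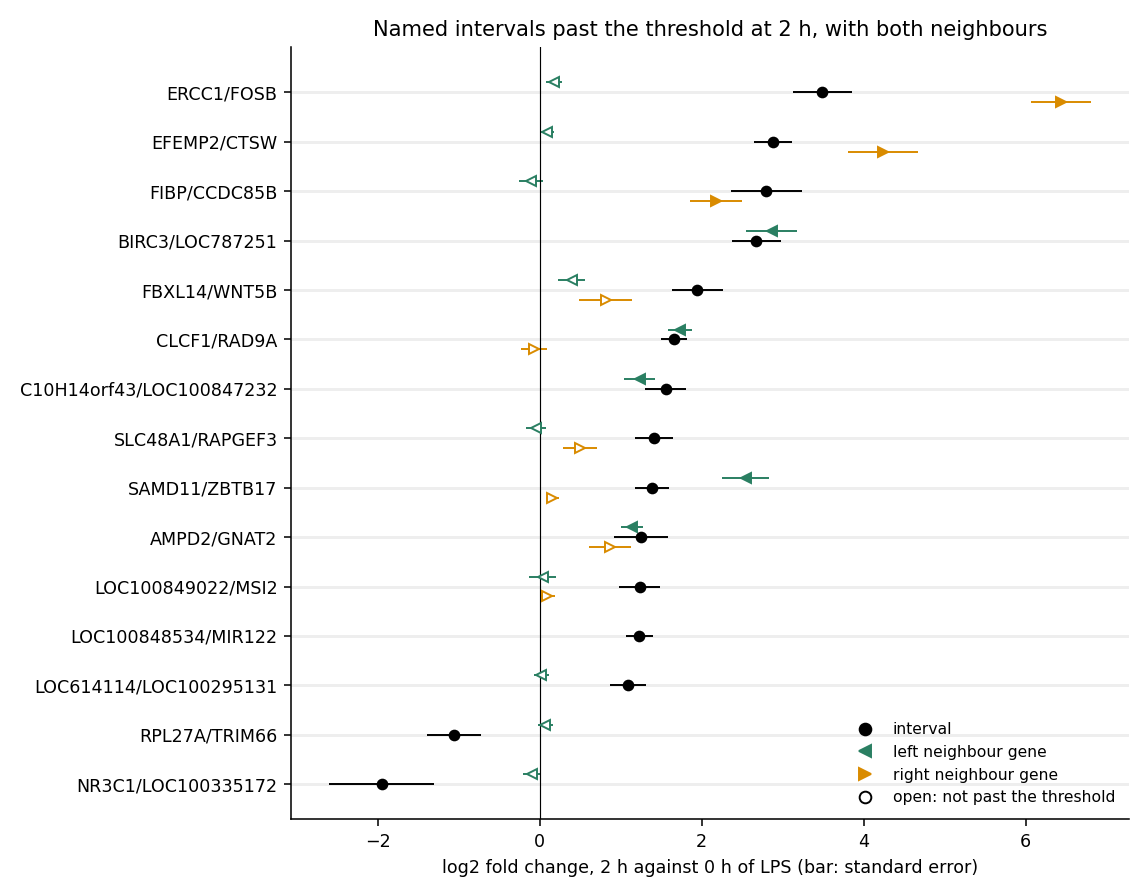
Log2 change 2 h after LPS with its SE for 15 intervals (black circles) and for their left (green triangles) and right (orange triangles) neighbours; open symbols did not pass the threshold. ERCC1/FOSB, EFEMP2/CTSW and CLCF1/RAD9A each sit with 1 neighbour while the other lies near 0.

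Over all tested intervals the changes at 2 h correlated with those of the left gene at r = 0.36 (n = 612 pairs) and of the right gene at 0.43 (n = 663), whereas left and right genes of the same interval correlated at 0.09 (n = 435). These are correlations across intervals, whose values share the same 16 libraries and are not independent replicates. Over both sides r was 0.39 (n = 1275) for divergent, 0.59 (n = 2844) for convergent and 0.51 (n = 4385) for same-strand intervals. By length r was 0.47 below 1 kb (n = 27), 0.63 from 1 to 10 kb (n = 172), 0.45 from 10 to 100 kb (n = 613) and 0.19 above 100 kb (n = 463). Called intervals numbered 0 of 14, 4 of 100, 12 of 433 and 4 of 445 in the same length classes.

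**Figure D3:**
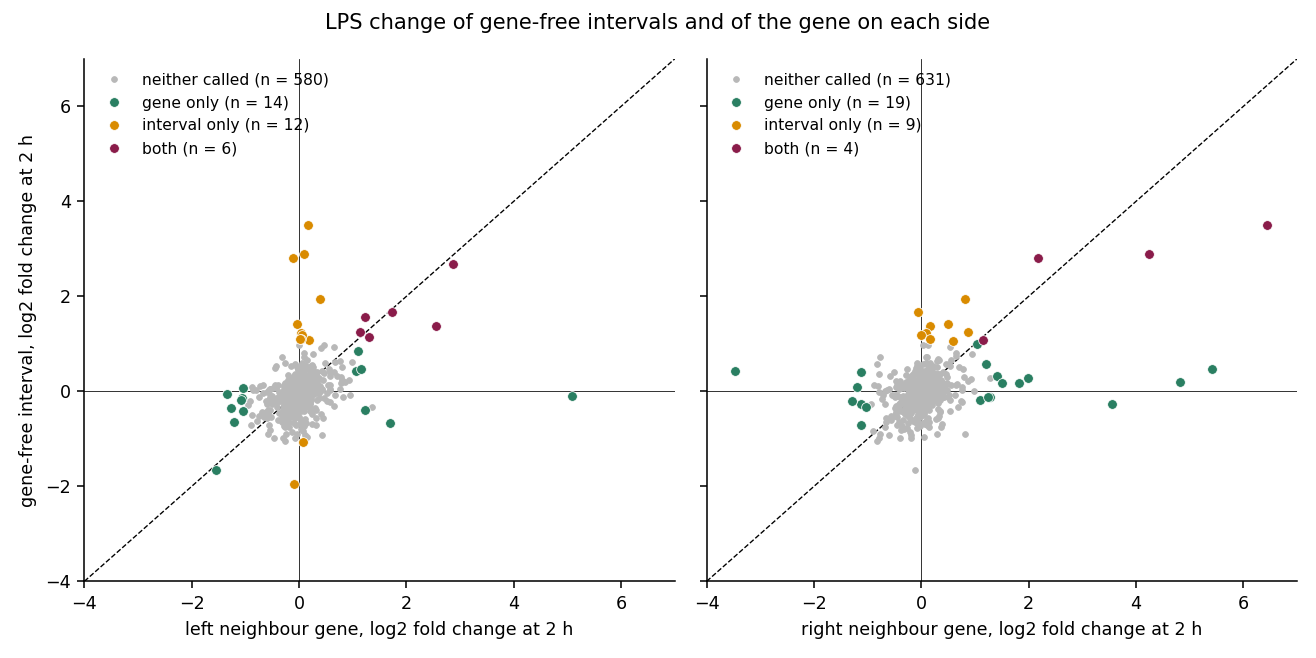
Log2 change of the interval (vertical) against that of its left or right neighbour (horizontal) 2 h after LPS, 1 point per interval, with a dashed line of equal change. With the left gene 6 intervals passed together, 12 alone and 14 genes alone, and with the right gene 4, 9 and 19.

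Whether an interval changed by more or less than its neighbour was tested on their ratio, the log2 of interval over gene counts, with limma. At 2 h 38 of 892 pairs, from 33 intervals, changed by 2-fold or more at an adjusted p under 0.05 (4.26%, against 3.52 percent of all interval-gene pairs tested), 19 up and 19 down. At 8 h 14 pairs from 12 intervals did (1.57%, against 1.54 percent), 7 up and 7 down. The shares were 3.25% and 1.86% for convergent and 3.47% and 1.34% for same-strand pairs. With a minimum of 5 CPM, 4 pairs were called at 2 h and 2 at 8 h.

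In several of these pairs the gene moved by more than the interval. PTX3/CCNL1 (chr1:111033869-111317358) held 1.35 CPM at 0 h (0.81 to 1.87) and 1.38 at 2 h (0.909 to 1.63), while PTX3, a secreted pattern-recognition protein, went from 0.304 CPM (0.061 to 0.885) to 7.7 (1.17 to 49.7), so that the ratio fell by 4.59 (SE 0.794, limma adjusted p 0.000549) and at 8 h by 4.35 (SE 0.822, adjusted p 0.00323). LOC508628/KCNE4 (chr2:111821113-111987823) went from 85.6 CPM (73.8 to 91.7) to 111 (95 to 140), with no overlap of hours and a change of 0.42, while KCNE4, a potassium channel subunit, fell by 3.47 (FDR 4.35e-08), from 5.36 CPM (1.1 to 16.1) to 0.39 (0.107 to 1.94). Its ratio therefore rose by 3.93 (SE 0.505, adjusted p 3.87e-05). In RNF125/TRAPPC8 the ratio to RNF125, a ubiquitin ligase that restrains RIG-I signalling, fell by 2.21 (SE 0.223, adjusted p 3.38e-06) at 2 h and by 1.35 (adjusted p 0.00154) at 8 h. The gene also rose by more than its interval where the ratio fell at 2 h to CTSW (-1.72), F2R (-1.48), GFPT2 (-1.23) and SAMD11 (-1.23), and in HEY2/HDDC2 (-1.79) HEY2 rose by 1.225 with the interval at -0.39. At 8 h this was so for F2R (-2.59), GFPT2 (-1.56) and IFI16 (-1.45).

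In other pairs the interval moved as much or by more. The ratio rose by 3.40 to FIBP (SE 0.551, adjusted p 0.000313), by 2.78 to EFEMP2 (SE 0.244, adjusted p 8.55e-07) and by 1.70 to RAD9A (SE 0.255, adjusted p 0.000162), none of which had passed the test. FBXL14/WNT5B rose against both of its genes, by 1.499 and 1.09, and LOC100849022/MSI2 likewise, by 1.16 and 1.09. CLCF1/RAD9A against CLCF1 (-0.09, adjusted p 0.539) and AMPD2/GNAT2 against AMPD2 (0.03, adjusted p 0.976) gave no detectable shift, with SEs of 0.079 and 0.265. The ratio also fell at 2 h to MSL1 (-1.57), where NR1D1/MSL1 was at -1.66 and MSL1 at -0.11, to GNPTAB (-1.13), where GNPTAB/DRAM1 was at -0.96 (FDR 0.0647) and GNPTAB at 0.14, and to HOXB2 (-1.67), where HOXB3/HOXB2 was at -0.90 and HOXB2 at 0.81. At 8 h it fell to F2RL2 (-1.36), with F2RL2/F2R at -0.82 and F2RL2 at 0.66, neither called.

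**Figure D4:**
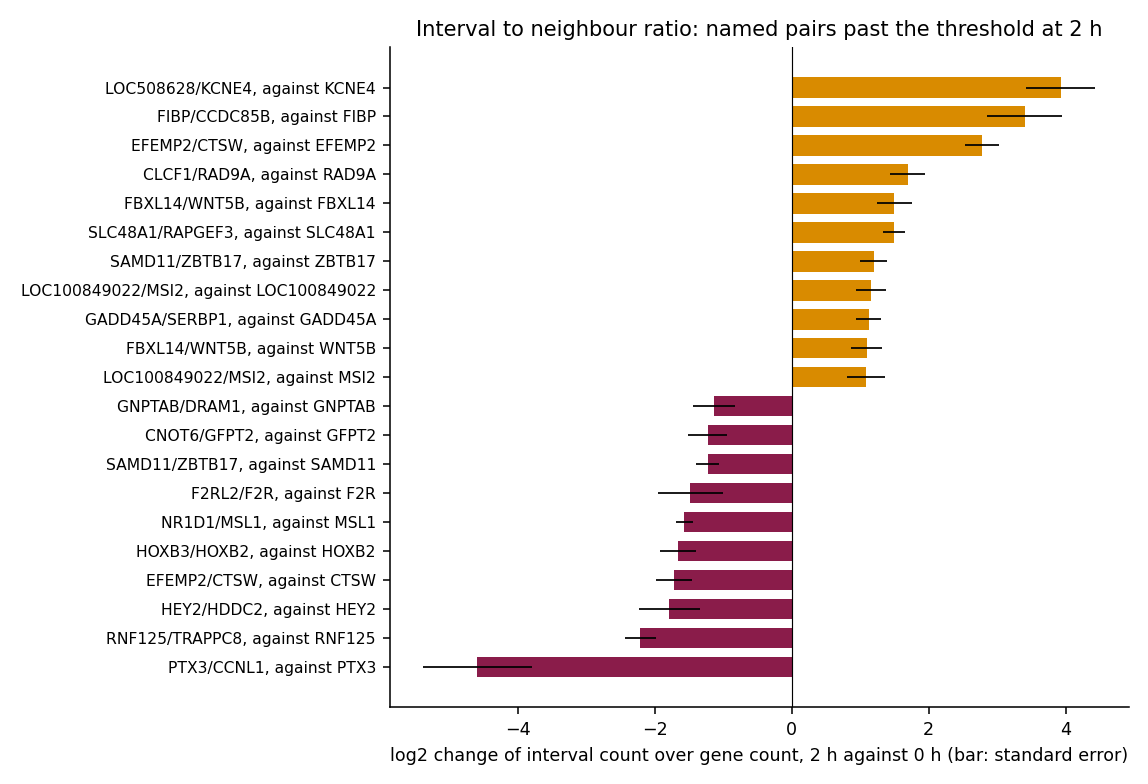
Log2 change of the interval-to-gene ratio with its SE for the 21 named interval-gene pairs called at 2 h, 11 above 0 and 10 below. The extremes are KCNE4 at 3.93 and PTX3 at -4.59.

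By 8 h fewer intervals differed from 0 h. Of 1010 tested, 6 rose and 2 fell (0.792%, against 1.42 percent of all rows tested and 1.37% of the neighbouring genes). BIRC3/LOC787251, EFEMP2/CTSW and LOC614114/LOC100295131 were called at both hours. The last, between 2 uncharacterised loci on chromosome 22, went from 30.2 CPM (15.8 to 45.8) to 69.1 (36.5 to 88.2) and 60.5 (41.5 to 81.9), rising by 1.10 at 2 h (FDR 1.96e-05) and 1.01 at 8 h (SE 0.187, FDR 5.54e-06), just past the 2-fold limit at 8 h, where it was not called without Holstein 1, without Holstein 2 or without Holstein 4 (lowest log2 0.92 with any animal left out).

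The other 3 rises were called at 8 h alone, but only LOC511330/NEIL3 was tested at 2 h, where it rose by 0.72 (FDR 0.00639), under the 2-fold limit. LOC511330/NEIL3, beside a DNA glycosylase gene, went from 1.59 CPM (1.25 to 2.16) over 2.33 (1.72 to 5.04) to 3.97 (3.33 to 10.1), with 0 and 8 h separate, and rose by 1.58 (SE 0.222, FDR 5.67e-10) with NEIL3 at -0.15. LOC100296800/IL16, beside the lymphocyte attractant gene IL16, went from 0.644 CPM (0.344 to 1.08) to 1.59 (0.957 to 2.81), up in all 8 animals (1.35, SE 0.260, FDR 1.37e-05), and its 2 h samples, at 2.03 CPM (0.794 to 6.26), were not tested, since too few of the 0 and 2 h samples reached 1 CPM. SCAPER/RCN2 went from 0.803 CPM (0.286 to 2.17) to 2.18 (0.796 to 2.96), up in 7 of 8 animals (1.11, SE 0.356, FDR 0.0216), and was not called without Angus 1, without Angus 3, without Angus 4, without Holstein 1 or without Holstein 4.

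Both falls at 8 h were variable between animals. MYLK/LOC100847164, beside myosin light chain kinase, went from 5.38 CPM (0.947 to 9.88) to 1.01 (0.57 to 5.29), down in all 8 animals with the hours overlapping (-1.68, SE 0.545, FDR 0.026), while MYLK was at -0.46 (FDR 0.277). It was not called without Angus 1, without Angus 3, without Angus 4, without Holstein 2 or by the quasi-likelihood test. SEMA5B/PDIA5, beside the semaphorin SEMA5B, went from 2.11 CPM (0.741 to 4.1) to 0.961 (0.204 to 1.63), down in all 8 animals (-1.48, SE 0.430, FDR 0.00983), and SEMA5B fell 2.83-fold (FDR 0.0136). The interval was not called without Holstein 2 or without the 4 samples with fewer bases per count. At 8 h 2 of the 8 called intervals had a neighbour called in the same direction, BIRC3 and SEMA5B, or 2 of 18 intervals with a called neighbour (11.1%) against 6 of 992 (0.605%), and r was 0.41 to the left (n = 623) and 0.28 to the right (n = 675). Both times share the 0 h samples.

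Of 25149 named autosomal genes, 2040 (8.11%) lay beside a retained interval. Of 51 NF-kB pathway genes in the tables, 2 intervals had 1 as a neighbour, and 1, BIRC3/LOC787251, rose at both times (2.67 at 2 h and 2.04 at 8 h). The other, LOC100139732/NFKBIZ (chr1:46493029-46543486), went from 12 CPM (9.5 to 14) to 10 (6.7 to 11.3) and 8.38 (7.99 to 10.3) and did not pass at 2 h (-0.27, FDR 0.102), while NFKBIZ, an inducible nuclear IkB protein, rose by 3.55 (FDR 8.28e-21), from 8.47 CPM to 99.4, and at 8 h by 1.70 (FDR 4.46e-11). Of 37 immediate-early and feedback genes, JUN, MYC, IER2 and DUSP1 among them, 9 intervals had 1 as a neighbour. Of these intervals only ERCC1/FOSB was called at 2 h (median 0.20) and none of the 8 tested was called at 8 h (median 0.10). Most of the 9 genes were not called at 2 h either, only FOSB and GADD45A (-1.04) being so. JUN (0.03), DUSP1 (-0.085) and PPP1R15A (-0.27) did not pass the FDR. IER2 (0.85), SPRY2 (0.71), MYC (0.96) and MAFK (0.80) rose under the 2-fold limit. Neither of the 2 intervals beside the 48 interferon-stimulated and antigen processing genes was called (median -0.19 and 0.36). SP110/SP100, between 2 nuclear body proteins, had 0.70 at 8 h (FDR 1.24e-05), under the 2-fold limit. RefSeq lists the protein-coding LOC510377 and a long non-coding RNA gene between SP110 and SP100. MIR2469/DDX58 had DDX58, the RNA sensor RIG-I, rise by 1.15 at 8 h (FDR 0.00198) beside it.

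Housekeeping genes were counted in the same way. Of 92 ribosomal protein genes, by symbol (which takes in the kinase RPS6KA5), 15 intervals had 1 as a neighbour, and of 14 tested at 2 h RPL38/SDK2 rose and RPL27A/TRIM66 fell (median -0.17), with none called at 8 h (median 0.03). Zinc finger genes (314) had 25 intervals, mitochondrial ribosomal protein genes (75) had 4, exosome genes (8) had 3 and transfer RNA synthetase genes (33) had 1, none of them called after LPS. Respiratory complex I (42 genes), the proteasome (40) and RNA polymerase subunits (28) had 0. Their divergent intervals, where any, did not reach 1 CPM in 12 samples.

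Intervals that differed between the breeds were called at each hour. At 0 h 25 of 997 did, 10 higher and 15 lower in Holstein (2.51%, against 3.83 percent of all rows tested). At 2 h 32 of 958 did, 21 higher and 11 lower (3.34%, against 4.46 percent), and at 8 h 24 of 1010 did, 15 higher and 9 lower (2.38%, against 3.25 percent). The counts moved with single animals. At 0 h there were 16 without Angus 1, 14 without Angus 4 and 11 without the 3 samples of that hour with fewer bases per count. At 2 h there were 20 without Angus 4 and 51 without Angus 3, the sample of that hour with fewer bases per count, and at 8 h 14 without Angus 1, 44 without Angus 3, 12 without Angus 4, 14 without Holstein 4 and 12 by the quasi-likelihood test. The counts over all rows moved likewise. They went from 781 to 259 at 0 h without the 3 samples with fewer bases per count. Without Angus 3 they went from 900 to 1289 at 2 h and from 673 to 1133 at 8 h. In all 54 intervals differed at any hour and 8 at all 3, which share animals and so are not separate evidence. The matching counts over all rows are not given here, and at each hour the share of intervals lay below that of all rows. Marker levels also differed between the breeds. The summed level of the 11 fibroblast markers was 53544 to 69335 CPM in Angus and 72978 to 124889 in Holstein at 0 h, overlapped at 2 h and was 38262 to 59246 against 61992 to 79222 CPM at 8 h. The 5 keratinocyte markers summed to 0.433 to 0.584 CPM in Angus and 0.705 to 19.7 in Holstein at 0 h, 0.393 to 0.719 and 0.582 to 17.8 at 2 h and 0.434 to 0.683 and 0.64 to 23.3 at 8 h, with Holstein 1 highest each time. The leukocyte markers summed to 3.16 to 4.58 CPM in Angus and 1.96 to 2.93 in Holstein at 0 h and overlapped later, and the endothelial markers to 1.67 to 1.99 and 2.16 to 3.49 CPM at 8 h. The part of these levels in the breed differences was not tested. Without Holstein 1 the calls were 23, 29 and 22 at 0, 2 and 8 h.

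**Figure D5:**
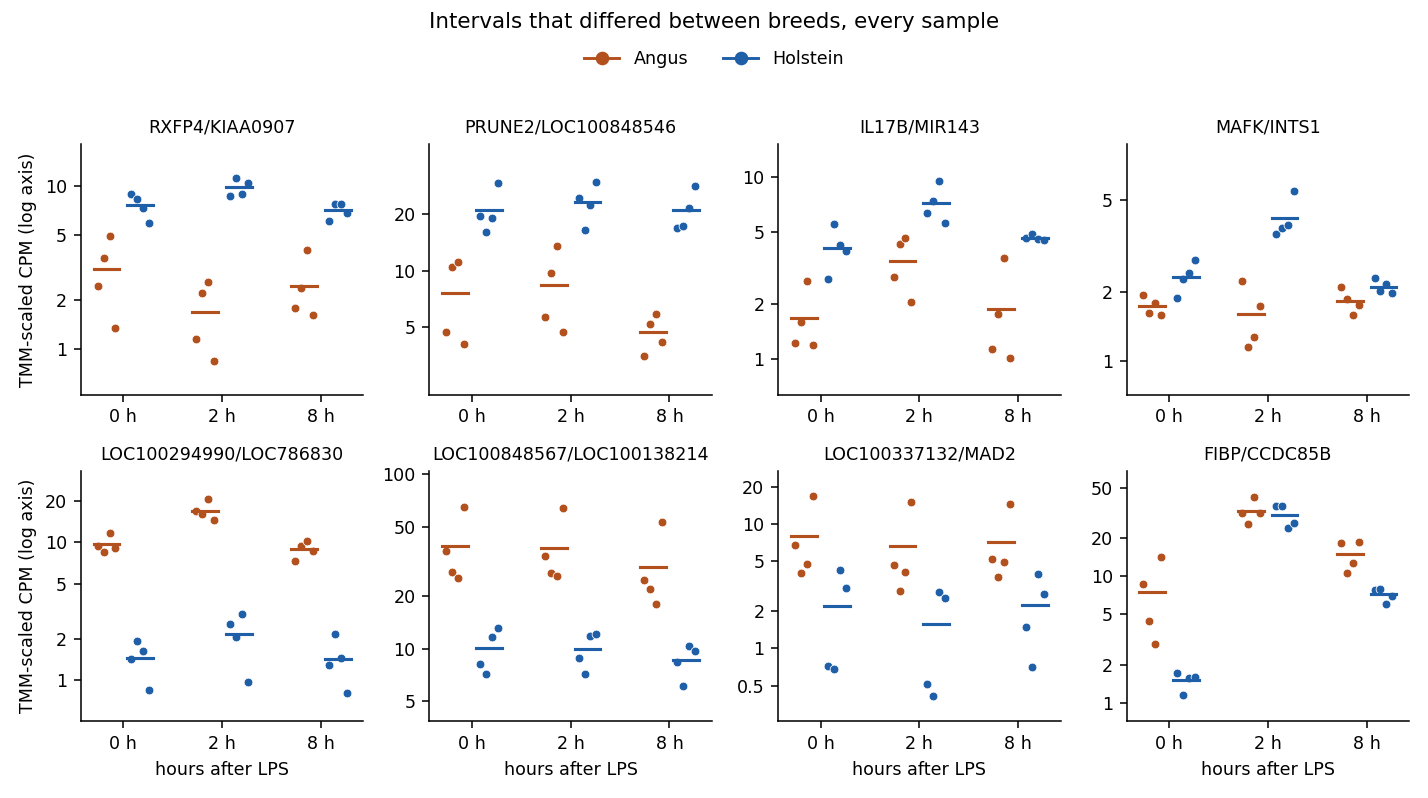
TMM-scaled CPM (log axis) by hour and breed for 8 intervals that differed between breeds, 1 point per sample and bars at group means. LOC100294990/LOC786830 lies at 7.32 to 20.5 CPM in Angus and at 0.81 to 3.02 in Holstein at every hour.

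Of the 8, 4 were higher in Holstein at all hours. RXFP4/KIAA0907 (chr3:14872720-14889680) lies between a relaxin-family peptide receptor and an RNA-binding protein gene. Angus samples held 2.42, 3.58, 4.9 and 1.35 CPM at 0 h, 1.14, 2.18, 2.57 and 0.837 at 2 h and 1.77, 2.35, 4.02 and 1.6 at 8 h. Holstein samples held 8.91, 8.31, 7.26 and 5.9, then 8.67, 11.2, 8.92 and 10.4, then 6.08, 7.77, 7.69 and 6.84. No Holstein sample overlapped an Angus sample at any hour, and the differences were 1.31 (FDR 0.00481), 2.53 (FDR 2.28e-10) and 1.54 (FDR 2.7e-05). RXFP4 was called at 2 h (2.43) and 8 h (1.44) but not at 0 h (1.11).

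PRUNE2/LOC100848546 (chr8:53029579-53239241), beside the apoptosis-linked gene PRUNE2, held 4.67, 10.4, 11.1 and 4.05 CPM in Angus and 19.6, 16.1, 19.1 and 29.4 in Holstein at 0 h, 5.67, 9.68, 13.6 and 4.69 against 24.4, 16.4, 22.6 and 29.6 at 2 h, and 3.47, 5.2, 5.89 and 4.12 against 16.8, 17.4, 21.5 and 28.5 at 8 h. The breeds never overlapped (1.48, 1.46 and 2.18, FDR 0.00129, 0.000535 and 4.14e-16), and PRUNE2 was higher too (1.26, 1.15 and 1.62). At 0 h the call was lost without the 3 samples with fewer bases per count.

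IL17B/MIR143 (chr7:62773957-62809303) lies upstream of the miR-143 hairpin row, a microRNA of mesenchymal cells. Angus held 1.22, 1.59, 2.69 and 1.18 CPM against 2.74, 5.49, 4.22 and 3.9 in Holstein at 0 h, 2.83, 4.27, 4.62 and 2.05 against 6.39, 7.42, 9.5 and 5.59 at 2 h, and 1.14, 1.77, 3.61 and 1.01 against 4.6, 4.84, 4.59 and 4.48 at 8 h. The breeds were separate at each hour, by 1.29 (FDR 0.00207), 1.06 (FDR 0.00379) and 1.30 (FDR 0.00943), and both neighbour rows averaged under 0.1 CPM. The 0 h call was lost without the 3 samples with fewer bases per count and the 8 h call without Angus 1 or by the quasi-likelihood test (FDR 0.0512).

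The other 4 were lower in Holstein. LOC100294990/LOC786830 (chr25:20544369-20622351) held 9.45, 8.44, 11.6 and 9.14 CPM in Angus and 1.42, 1.92, 1.65 and 0.859 in Holstein at 0 h, 16.8, 16.1, 20.5 and 14.4 against 2.56, 2.05, 3.02 and 0.98 at 2 h, and 7.32, 9.34, 10.2 and 8.7 against 1.3, 2.16, 1.45 and 0.81 at 8 h. The breeds were far apart at every hour (-2.71, -2.98 and -2.64, FDR 5.55e-24, 2.19e-17 and 3.72e-16), and the calls held in each alternative fit run. Its neighbours are 2 uncharacterised loci, of which LOC100294990 averaged 0.067 CPM.

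LOC100848567/LOC100138214 (664907 bases on chromosome 6) held 36.3, 27.6, 25.4 and 65.3 CPM in Angus and 8.14, 7.16, 11.6 and 13.2 in Holstein at 0 h, with no overlap at any hour (-1.95, -1.92 and -1.77, FDR 9.35e-07, 2.84e-07 and 3.11e-05). LOC100337132/MAD2, beside the gene row named MAD2, held 6.79, 4.05, 4.78 and 16.7 against 0.719, 0.688, 4.25 and 3.04 CPM at 0 h, where the breeds overlapped (-1.89, -2.09 and -1.67, FDR 0.0388, 0.0289 and 0.0295). MAD2 was lower with it (-1.53, -1.68 and -1.39, the last not called). The interval was not called at 2 h without Angus 4, without Holstein 1 or without Holstein 2, or at 8 h without any of these or Holstein 4, and at neither hour by the quasi-likelihood test (FDR 0.0813 and 0.0837). CDKN2C/FAF1, beside a cell cycle inhibitor gene, differed by -1.38, -1.27 and -1.02 (FDR 0.000951, 0.00604 and 0.0136). The authors list CDKN2C itself as lower in Holstein at 0 h and 2 h.

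Several breed differences were called at fewer hours. MAFK/INTS1 (chr25:41961975-41983695), beside the small MAF transcription factor MAFK, held 2.23, 1.15, 1.28 and 1.74 CPM in Angus and 3.56, 3.77, 3.88 and 5.44 in Holstein at 2 h (1.38, SE 0.264, FDR 1.59e-05), with MAFK at 1.20, and at 0 h it differed by 0.42 (FDR 0.128). KCNH5/RHOJ, beside the small GTPase RHOJ, held 1.99, 1.49, 1.55 and 1.13 against 2.81, 3.65, 3.46 and 4.5 CPM at 8 h (1.23, FDR 3.11e-05), with RHOJ at 1.57. EXOSC8/ALG5, a 1616-base interval beside an exosome subunit, held 3.9, 4.02, 2.96 and 4.84 against 2.1, 1.33, 1.49 and 1.45 CPM at 8 h (-1.30, SE 0.228, FDR 3.05e-06), with EXOSC8 at -0.54, under the 2-fold limit. All 3 were without overlap at the hour named.

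SEMA5B/PDIA5 was higher in Holstein at 0 h (1.57, FDR 3.59e-06) and 2 h (2.20, FDR 1.3e-08). ZMYND15/CXCL16, a 1136-base interval beside the scavenger receptor and chemokine gene CXCL16, was higher at 0 h (1.06, FDR 0.0313) and 8 h (1.29, FDR 0.0172), where ZMYND15 (1.66) and CXCL16 (1.20) were both called, the only interval with both neighbours called in its direction in any of the 7 comparisons. Its 8 h call was lost without Angus 1, without Angus 2, without Holstein 2, without Holstein 4 or by the quasi-likelihood test (FDR 0.0632). The largest difference at 0 h, in LOC100847767/SP7 (-3.17, SE 0.779, FDR 0.00347), did not follow the animals over the hours. Angus samples 1 to 4 held 9.77, 8.35, 0.324 and 7.11 CPM at 0 h, 5.89, 6.91, 0.037 and 0.279 at 2 h and 0.102, 0.161, 9.12 and 1.24 at 8 h, and Holstein samples 0.299, 0.908, 1.24 and 0.375, then 7, 0.184, 8.84 and 8.55, then 9.41, 0.186, 1.03 and 0.2. Each library was either high or low, in no order by breed or hour, and 57.2% of the counts covered 1 base. The 0 h call was lost by the quasi-likelihood test (FDR 0.0544) and without the 3 samples of that hour with fewer bases per count (log2 -2.99, FDR 0.294).

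Part of the breed differences was shared with a neighbour. At 0 h 11 of the 25 had a neighbour called in the same direction (11 of 44 intervals with a called neighbour, 25%, against 14 of 953, 1.47%). At 2 h 11 of 32 did (11 of 50, 22%, against 21 of 908, 2.31%) and at 8 h 8 of 24 (8 of 38, 21.1%, against 16 of 972, 1.65%). No interval had a neighbour called in the opposite direction at any hour or after LPS.

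Few intervals were called as responding to LPS by different amounts in the 2 breeds, in fits that did not pair samples by animal. At 2 h the breed-by-LPS interaction was called in 4 of 992 (0.403%, against 0.278 percent of all rows tested) and at 8 h in 1 of 1010 (0.099%, against 0.0982 percent). The largest was FIBP/CCDC85B, whose values are given above: from a lower level at 0 h (-2.32 in Holstein, SE 0.441, FDR 4.68e-05, and -1.69, FDR 0.0409, without the 3 samples of that hour with fewer bases per count) the Holstein samples rose by 2.22 more (SE 0.509, FDR 0.00683) to a level that overlapped Angus. Without the 4 samples with fewer bases per count the interaction of this interval was 1.71 (FDR 0.0721). CCDC85B, also lower at 0 h (-1.35), had an interaction of 1.23 that was not called (FDR 0.634). In C10H14orf43/LOC100847232 (chr10:85536668-85556177) Angus samples went from 1.89, 1.49, 1.49 and 2.08 CPM at 0 h to 2.76, 3.62, 3.17 and 2.43 at 2 h and Holstein samples from 1.68, 1.81, 0.937 and 1.65 to 7.49, 6.38, 5.47 and 7.14, so that the breeds overlapped before LPS and not at 2 h. The interval rose by 1.56 over both (SE 0.253, FDR 4.48e-08) and by 1.36 more in Holstein (SE 0.307, FDR 0.00494), and C10H14orf43 rose by 1.24 (FDR 8.02e-09) with an interaction of 0.90 (FDR 0.000694).

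CHST1/LOC100847913, beside a keratan sulfotransferase gene, went from 9.26, 4.88, 3.87 and 7.37 CPM to 3.87, 2.51, 1.86 and 3.04 in Angus and from 3.07, 2.28, 2.86 and 1.94 to 4.07, 2.79, 3.66 and 2.87 in Holstein, down in all 4 Angus and up in all 4 Holstein animals (1.58, SE 0.399, FDR 0.0231). At 8 h IL7/STMN2, beside the lymphocyte growth factor IL7, went from 5.26, 4.1, 4.25 and 4.64 to 4.46, 3.35, 5.32 and 5.51 in Angus and from 3.37, 3.72, 3.39 and 4.12 to 5.77, 11.7, 10.5 and 9.48 in Holstein (1.33, SE 0.300, FDR 0.0154). Without the 4 samples with fewer bases per count CHST1/LOC100847913 was at 1.10 (FDR 0.483) and IL7/STMN2 at 1.43 (FDR 0.221).

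The interaction calls were not stable. At 2 h there were 0 without Angus 4, 0 without Holstein 1, 2 without Holstein 2, 2 without Holstein 3, 1 without Holstein 4, 2 without the 4 samples with fewer bases per count and 0 by the quasi-likelihood test. At 8 h there were 0 without Angus 1, without Angus 2, without Holstein 2, without Holstein 3 or without Holstein 4, 2 without Angus 3, 0 without the 4 samples with fewer bases per count and 0 by the quasi-likelihood test, and 5 with the animal as a replicate block. At an unadjusted p under 0.05 the likelihood-ratio test had 45 of 992 intervals at 2 h and 40 of 1010 at 8 h, the quasi-likelihood test 50 and 47, and DESeq2, which called 4 and 1, had 49 and 47. With the animal as a replicate block there were 123 and 105, and with the block and the quasi-likelihood test 126 and 108. Shares over all rows at this unadjusted p are not given here. The calls over all rows moved as well. At 2 h they went from 56 to 33 without Angus 4, 34 without Holstein 1, 81 without Angus 3 and 16 by the quasi-likelihood test. At 8 h they went from 20 to 62 without Angus 3 and to 0 by the quasi-likelihood test. With the block 126 and 100 rows were called at 2 and 8 h. None of the 5 called intervals had a neighbouring gene whose interaction was called in the same comparison.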

How the data were processed

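Messenger RNA was sequenced from 24 cultures, and the authors aligned reads to UMD v3.1 with NextGENe 2.3.4 (CASAVA 1.7 is named in the submitters' processing notes). The deposited tables hold, per row, raw read counts, which were the values tested, and a coverage signal (bases covered, deepest base) that the authors' software wrote, which served only to describe rows and to find 4 samples with fewer bases per count of COL1A1. Deepest bases capped by the software were left empty.

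Counts were scaled by TMM and tested with edgeR 4.0.16 (generalised linear model likelihood-ratio test, R 4.3.3), over all rows with 1 CPM or more in at least 50% of the samples compared. A row was called at an FDR under 0.05, a change of 2-fold or more and an average above 1 CPM. LPS at 2 or 8 h was compared with 0 h over both breeds, Holstein with Angus at each hour, and the interaction in 4 groups. None of these main fits, nor the main ratio test, held a term for the animal. Interval-to-neighbour ratios, with 0.5 counts added, were tested with limma 3.58.1 (trend) over 5974 pairs of all interval classes. The fitting steps were tested on simulated data. Intervals were named by a rule: the largest called changes in each comparison and direction, the 5 shortest, the 5 with most counts and those at the edge of the level rule. The intervals, neighbour lists and rules were chosen with earlier results of these data known.

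Samples of 1 animal deviated together from their group means (mean r 0.659 between 0 and 2 h, lowest 0.546, and 0.619 between 0 and 8 h, lowest 0.534), so the labels' animal numbers pair the samples. The mean r between different animals (-0.218 and -0.206) is negative by construction, because deviations from a group mean sum to 0. Alternatives were the quasi-likelihood F test, DESeq2 1.42.0, RLE scaling, no filter, the FDR alone, each animal left out, the 4 samples left out, the animal as a block and, chosen after seeing the data, the block with the quasi-likelihood test. A count of 0 allows up to 3 counts, or 0.029 to 0.059 CPM, which covers counting error only. Gene lists by symbol and the RefSeq table (names and neighbours only) were used as given. Reference sequence was not used here. A few named intervals are not reported here.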

Additional observations from a re-analysis of the deposited data

Results flagged for a closer look

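In groups of 4 animals a sample stood apart when its gap to the nearest other sample, over the group's range, exceeded Dixon's critical value of 0.829. This was so in 17 of 246 groups of the named called intervals, and chance gives about 1 in 20. After LPS, Angus 3 at 2 h held 93.37 CPM in BIRC3/LOC787251, the other Angus samples 13.2 to 25.2, and it is 1 of the 4 samples with fewer bases per count. Angus 4 at 8 h held 10.13 CPM in LOC511330/NEIL3 (others 4.19 to 5.09). In AMPD2/GNAT2 Holstein 2 stood apart at 0 h with 8.74 CPM (others 3.84 to 4.58) and again at 2 h with 20.458 (others 11.1 to 12.1).

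At 0 h Angus 4 stood apart in EFEMP2/CTSW with 3.302 CPM (others 1.56 to 1.59) and in BIRC3/LOC787251 with 5.883 (others 7.18 to 7.43), Holstein 3 in SAMD11/ZBTB17 with 2.464 (others 3.37 to 3.53) and Holstein 2 in LOC100848534/MIR122 with 2.298 (others 1.06 to 1.20). Angus 4 and Holstein 2 at 0 h are also among the samples with fewer bases per count.

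Holstein 1 alone kept a high level of NR3C1/LOC100335172 after LPS, 6.126 CPM at 2 h (others 0.98 to 1.13) and 23.084 at 8 h (others 0.83 to 1.09). Angus 4 alone was high in LOC100337132/MAD2, with 14.986 CPM at 2 h (others 2.88 to 4.68) and 14.563 at 8 h (others 3.71 to 5.25). In LOC100847767/SP7 Angus 3 held 9.123 CPM (others 0.102 to 1.24) and Holstein 1 9.406 (others 0.186 to 1.03) at 8 h. Smaller gaps were found for Angus 1 in BHLHA9/ABR at 8 h (1.9 CPM, others 0.971 to 1.06), Holstein 4 in MAFK/INTS1 at 2 h (5.437 CPM, others 3.56 to 3.88) and Holstein 4 in ZMYND15/CXCL16 at 2 h (4.741 CPM, others 3.07 to 3.26).

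The breeds differed in the log2 response to LPS, by edgeR's interaction test, at 2 h in FIBP/CCDC85B by 2.216, CHST1/LOC100847913 by 1.577 and C10H14orf43/LOC100847232 by 1.356, and at 8 h in IL7/STMN2 by 1.326, each with the larger value in Holstein. None of these calls was kept by the quasi-likelihood test (FDR 0.157, 0.177, 0.0848 and 0.333 in the same order).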

How the results depend on the processing

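No named change reversed in any alternative. With DESeq2 and with RLE scaling 63 of 63 named calls were kept, with no filter 57 of 63, by the quasi-likelihood test 46 of 63, without the 4 samples with fewer bases per count 38 of 51, and with 1 animal left out 412 of 492. By the FDR alone, with no limit on fold or level, 187 of 992 intervals were called at 2 h of LPS and 93 of 1010 at 8 h. Over all rows these were 4436 of 20157 and 2606 of 20368. Between breeds 76 of 997, 140 of 958 and 91 of 1010 intervals were called at 0, 2 and 8 h. Over all rows these were 2816 of 20385, 4050 of 20184 and 3411 of 20679. Without the 4 samples the breed counts were 11 at 0 h and 51 at 2 h, and the interactions 2 at 2 h and 0 at 8 h. By the quasi-likelihood test there were 12 breed calls at 8 h and 0 interactions at 2 h and 0 at 8 h, and with no filter 2 interactions at 2 h. A 5 CPM filter left 4 ratio calls at 2 h and 2 at 8 h. Of the 1020 intervals 262 had 5 CPM in 12 samples and 649 had 1 CPM in all 24.

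With 1 animal left out the calls ranged from 20 to 26 for LPS at 2 h, 5 (without Holstein 2) to 8 at 8 h, 14 (without Angus 4) to 36 (without Angus 3) between breeds at 0 h, 20 (without Angus 4) to 51 (without Angus 3) at 2 h, 12 (without Angus 4) to 44 (without Angus 3) at 8 h, 0 to 4 and 0 to 2 for the interactions at 2 and 8 h, and 36 to 46 and 9 (without Holstein 1) to 14 for the ratios at 2 and 8 h. Under the replicate block, in which samples are paired by the labels' animal numbers, 22 intervals were called at 2 h of LPS, 11 at 8 h, 6 and 5 interactions at 2 and 8 h and 40 and 19 ratios; only the interaction count at 8 h moved by over 1.5 times, it was 2 with the block and the quasi-likelihood test, and the block changed no named call. The quasi-likelihood test with the block lost 1 of 27, FIBP/CCDC85B in the interaction at 2 h. The causes of these changes were not tested. An interval at 1 CPM rests on 51 to 104.4 counts, often gathered at few positions.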
